A study of Mus musculus with 15 samples.

Results

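The 38 genes described here are members of the Hox clusters of the mouse, HoxA to HoxD. They were taken from a list of names, with no measured value in the rule, and all 38 were matched to gene bounds among 21887 protein-coding genes of the RefSeq annotation. HoxA gave 10 members, from Hoxa2 to Hoxa13, over 98.5 kb at chr6:52162417-52260880. HoxB gave 10, from Hoxb1 to Hoxb13, over 173.9 kb at chr11:96194316-96368254. HoxC gave 9, from Hoxc4 to Hoxc13, over 115.7 kb at chr15:102921131-103036856, and HoxD gave 9, from Hoxd1 to Hoxd13, over 96.9 kb at chr2:74668225-74765142. The span of a cluster here runs from the outer end of its lowest-numbered member to that of its highest-numbered one.

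Histone marks were mapped by ChIP-seq in whole liver of C57Bl/6 mice aged 8 to 12 weeks on a normal diet, wild type (WT) or Uhrf1hepKO, a knockout whose name places the loss of Uhrf1, the partner of the maintenance DNA methyltransferase, in hepatocytes. Baseline liver gave 2 H3K4me3 libraries of each genotype, 1 H3K9me3 library of each and 1 H3K27me3 library of each, and WT liver gave 4 further H3K27me3 libraries at 0, 30, 40 and 96 h of regeneration. The 0 h library stands as WT replicate 2 beside the baseline one, so H3K27me3 had 2 WT libraries, 1 of Uhrf1hepKO (called KO from here), and 1 at each later time. The remaining 3 of the 15 samples are inputs. By the labels the second H3K4me3 libraries and the H3K9me3 libraries are of round 2. WT H3K27me3 replicate 2 and the 30, 40 and 96 h libraries are of round 3, and the other ChIP libraries carry no round. Differences between first and second libraries cannot be told apart from the round. What drives the deletion, how regeneration was started and whether libraries came from separate animals are facts not given in the labels, and the other cell types of a Uhrf1hepKO liver are not separated from its hepatocytes. The second pair of H3K4me3 libraries is named H3K4me3 in its titles but carries an H3K9me3 antibody tag, and it was used by title. Tissue identity was checked on 8 hepatocyte genes, whose promoters carried H3K4me3 in 8, 7, 8 and 7 cases in WT replicates 1 and 2 and KO replicates 1 and 2 (Ttr was without it in both second libraries) and H3K27me3 in 0 of 8 cases in every library.

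Hox genes encode homeodomain transcription factors that give cells their position along the head-to-tail axis of the embryo. Their order along the DNA follows the order of their use, so that low-numbered paralogs are switched on early and in anterior tissue and high-numbered paralogs late and in posterior tissue and limb. In cells that do not use them the clusters are textbook targets of Polycomb repression, in which the PRC2 complex with its enzyme Ezh2 writes H3K27me3 over long domains. H3K4me3 marks promoters that are active or poised, usually over CpG islands, and H3K9me3 marks a different, constitutive kind of heterochromatin.

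For each cluster, promoters picked by their H3K4me3 are shown as the 250 bases before the annotated start. They run 5′ to 3′ on the gene's strand, with every CG dinucleotide in capitals. The sequences and their positions are those of RefSeq on GRCm38.p6. Of the 38 members 22 are in the promoter table, and HoxC is represented there by Hoxc4. Hoxa5, Hoxb4 and Hoxd9 are shown as the member of their cluster in that table with the highest median H3K4me3 fold over the 4 lists, a list without a peak counting as 0 (10.5, 10.6 and 2.92). Hoxa9, Hoxb1, Hoxc4 and Hoxd12 are shown as members with none in any library. Among such members the one with H3K27me3 in the most libraries was taken, and ties went to the lowest paralog number.
Hoxa5 (chr6:52204588-52204837, minus strand): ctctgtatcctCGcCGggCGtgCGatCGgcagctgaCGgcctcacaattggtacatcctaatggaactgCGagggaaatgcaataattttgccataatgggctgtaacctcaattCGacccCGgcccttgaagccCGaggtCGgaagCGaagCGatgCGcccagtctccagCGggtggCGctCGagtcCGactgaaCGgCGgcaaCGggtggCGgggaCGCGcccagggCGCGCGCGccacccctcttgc
Hoxa9 (chr6:52227371-52227620, minus strand): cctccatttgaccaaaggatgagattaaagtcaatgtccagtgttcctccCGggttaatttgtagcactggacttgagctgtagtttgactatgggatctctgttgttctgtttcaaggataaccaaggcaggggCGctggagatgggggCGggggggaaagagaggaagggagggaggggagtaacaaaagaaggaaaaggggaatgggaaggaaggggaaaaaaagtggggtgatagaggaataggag
Hoxb4 (chr11:96318017-96318266, plus strand): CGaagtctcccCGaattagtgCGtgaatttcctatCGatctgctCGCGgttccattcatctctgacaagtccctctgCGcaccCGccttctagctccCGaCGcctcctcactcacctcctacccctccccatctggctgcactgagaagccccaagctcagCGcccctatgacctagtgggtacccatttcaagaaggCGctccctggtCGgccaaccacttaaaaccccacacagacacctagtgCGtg
Hoxb1 (chr11:96365508-96365757, plus strand): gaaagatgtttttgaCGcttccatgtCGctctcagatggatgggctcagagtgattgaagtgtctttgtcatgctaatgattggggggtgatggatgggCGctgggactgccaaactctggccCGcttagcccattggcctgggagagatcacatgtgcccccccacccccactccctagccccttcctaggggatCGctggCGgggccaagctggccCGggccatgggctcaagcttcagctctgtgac
Hoxc4 (chr15:103034145-103034394, plus strand): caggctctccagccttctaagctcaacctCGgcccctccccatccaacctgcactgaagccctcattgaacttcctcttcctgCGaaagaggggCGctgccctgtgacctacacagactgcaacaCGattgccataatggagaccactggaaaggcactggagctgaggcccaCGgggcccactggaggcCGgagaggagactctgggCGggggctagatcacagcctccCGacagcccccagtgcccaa
Hoxd9 (chr2:74697513-74697762, plus strand): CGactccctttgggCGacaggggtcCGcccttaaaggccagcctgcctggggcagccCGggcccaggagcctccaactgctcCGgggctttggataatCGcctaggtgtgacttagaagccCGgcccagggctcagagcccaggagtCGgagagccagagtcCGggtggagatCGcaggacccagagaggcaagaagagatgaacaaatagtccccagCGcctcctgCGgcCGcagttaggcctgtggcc
Hoxd12 (chr2:74674763-74675012, plus strand): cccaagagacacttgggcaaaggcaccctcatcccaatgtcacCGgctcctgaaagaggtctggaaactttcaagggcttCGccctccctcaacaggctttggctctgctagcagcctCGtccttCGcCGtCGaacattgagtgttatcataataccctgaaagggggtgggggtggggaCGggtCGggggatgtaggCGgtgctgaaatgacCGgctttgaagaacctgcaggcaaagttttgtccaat
The upstream stretch of Hoxa5, a regulator of lung and upper trunk skeleton, held 28 CpG dinucleotides and was 63.6% G and C. That of Hoxa9, a regulator of blood progenitors in the same cluster, held 3 and was 49.6% G and C. In HoxB the stretch of Hoxb4 held 14 CpG against 7 at Hoxb1, and in HoxD that of Hoxd9 held 13 against 10 at Hoxd12, while Hoxc4 held 8.

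The clusters also hold microRNA genes, which are shown because the pairs in different clusters share a seed (bases 2 to 8, in capitals).
miR-10a-5p (Mir10a, chr11:96317186-96317208, plus strand): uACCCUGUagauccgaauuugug
miR-10b-5p (Mir10b, chr2:74726074-74726096, plus strand): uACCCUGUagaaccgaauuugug
miR-196a-5p (Mir196a-2, chr15:102973365-102973386, plus strand): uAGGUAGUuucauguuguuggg
miR-196b-5p (Mir196b, chr6:52230129-52230150, minus strand): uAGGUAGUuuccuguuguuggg
Mir10a lay 0.992 kb from Hoxb4 and within the bounds of Hoxb3, and Mir10b within the bounds of Hoxd3 and Hoxd4. Mir196b lay between Hoxa9 and Hoxa10, Mir196a-2 between Hoxc10 and Hoxc9, and Mir196a-1, whose mature 5p strand is the same as that of Mir196a-2, between Hoxb13 and Hoxb9.

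Each cluster was a single H3K27me3 domain in baseline liver of both genotypes. In every one of the WT replicate 1, WT replicate 2 and KO libraries, 1 island per cluster covered 100% of the span, and all 38 promoters were marked. An island is a run of enriched windows called by SICER at a false discovery rate of at most 0.01, and a promoter counted as marked when an island or peak touched the window from 1 kb before to 1 kb after the start. Of all 21887 protein-coding promoters, 21.7% were marked in WT replicate 1, 26.9% in WT replicate 2 and 22.4% in KO.

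The HoxA island ran over chr6:52032001-52412000 in WT replicate 1, chr6:52032001-52381000 in WT replicate 2 and chr6:52015001-52380000 in KO. The HoxB island ran over chr11:96079001-96425000, chr11:96078001-96576000 and chr11:96077001-96425000 in the same order of libraries. The HoxC island ran over chr15:102726001-103077000, chr15:102723001-103087000 and chr15:102724001-103078000, and the HoxD island over chr2:74615001-74824000, chr2:74629001-74825000 and chr2:74614001-74825000. Bounds of KO and WT replicate 1 lay within 2 kb of each other at every end but those of HoxA, where the ends differed by 17 and 32 kb. The largest gap among all 3 libraries, 151 kb at the upper end of HoxB, set WT replicate 2 apart from both WT replicate 1 and KO.

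The ends of the domains lay beside genes of other function. Evx1 and Evx2, homeobox genes next to Hoxa13 and Hoxd13, lay wholly inside the islands in all 3 baseline libraries and carried no H3K4me3. At the other side of HoxA the body of Skap2, an adaptor protein gene 149.9 kb from the span, had no island in any of the 6 H3K27me3 libraries and its promoter had H3K4me3 in all 4. Calcoco1, 199.0 kb from HoxC, and Mtx2, 60.7 kb from HoxD, likewise had 0% of the body in islands in all 6 and H3K4me3 in all 4, although an island edge reached the promoter window of Calcoco1 in 1 library and that of Mtx2 in 4. At HoxB the neighbours Calcoco2, Ttll6 and Skap1 had marked promoters in all 6 libraries.

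**Figure D1:**
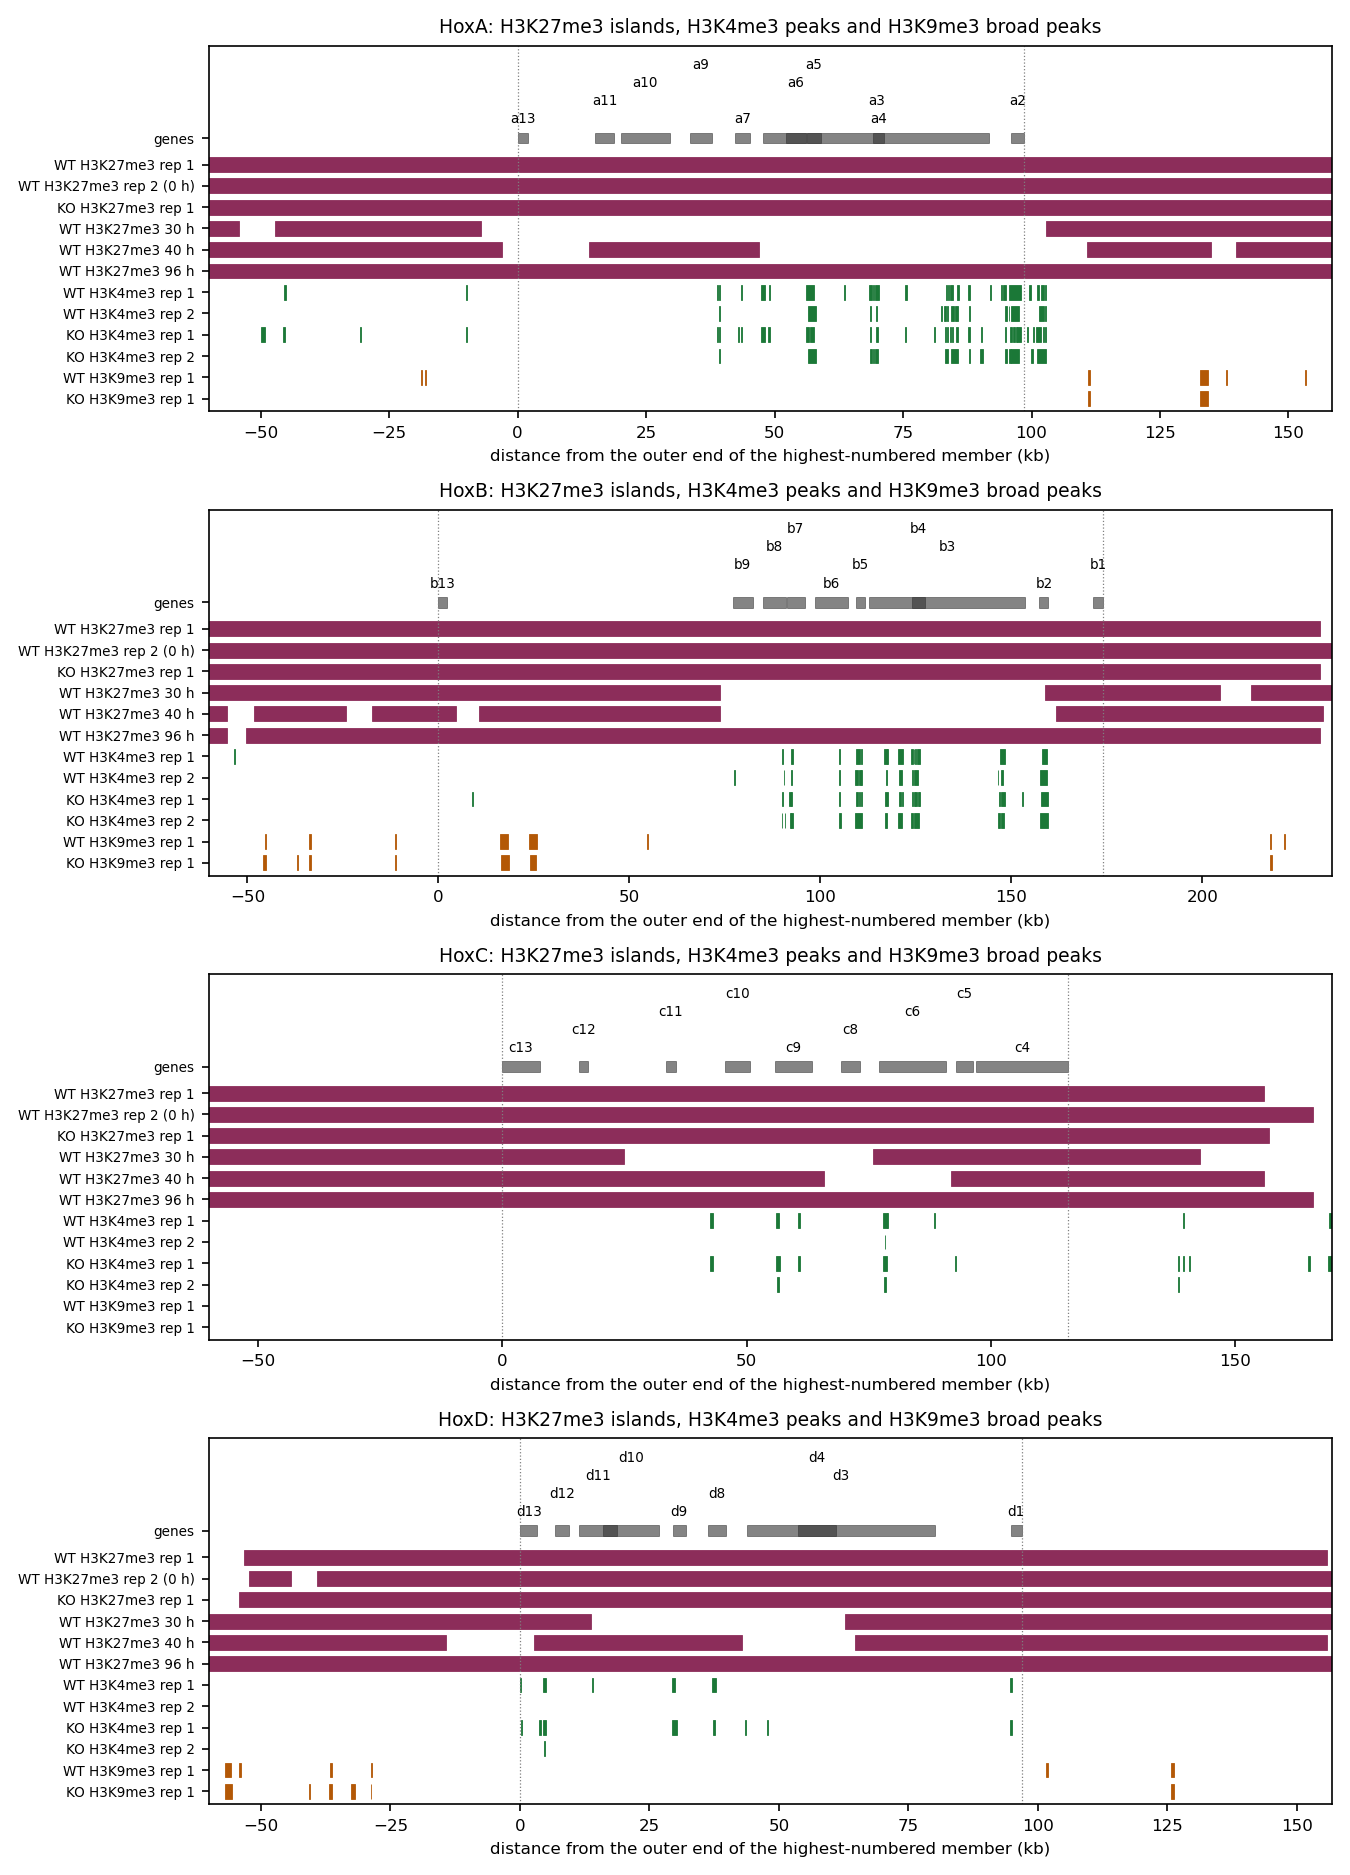
H3K27me3 islands, H3K4me3 peaks and H3K9me3 broad peaks along the 4 Hox clusters, 1 panel per cluster, with distance in kb from the outer end of the highest-numbered member on the x axis and 1 row per library under the genes. Every cluster is filled from end to end in both WT baseline libraries, KO and 96 h, while at 30 h HoxA is empty and the other clusters keep islands towards their ends.

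The strength of the domains was high among all islands of each library. Fold is the ratio of ChIP to control reads scaled by SICER, and its interval (95%, exact, counting error only) covers no difference between animals. In WT replicate 1 the fold was 2.51 (2.45 to 2.56) at HoxA, 2.70 (2.63 to 2.76) at HoxB, 2.79 (2.73 to 2.85) at HoxC and 2.72 (2.64 to 2.80) at HoxD. In KO it was 2.44 (2.39 to 2.50), 2.52 (2.47 to 2.58), 2.66 (2.60 to 2.71) and 2.54 (2.47 to 2.62) in the same order. The median over all islands was 1.62 in WT replicate 1 and 1.63 in KO, so every cluster stood well above it in both genotypes.

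WT replicate 1 and KO share a control library, so their folds can be set against each other. The KO to WT ratio was 0.975 at HoxA, 0.936 at HoxB, 0.951 at HoxC and 0.937 at HoxD. All 4 were below 1, and all lay between the 5th and 95th percentiles of 3247 paired islands, 0.888 and 1.14, around a median ratio of 1.02. WT replicate 2 against WT replicate 1 gave 1.05 at HoxA, 0.966 at HoxC and 1.06 at HoxD, with a different control. With 1 KO library the difference between genotypes has no replicate check.

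**Figure D2:**
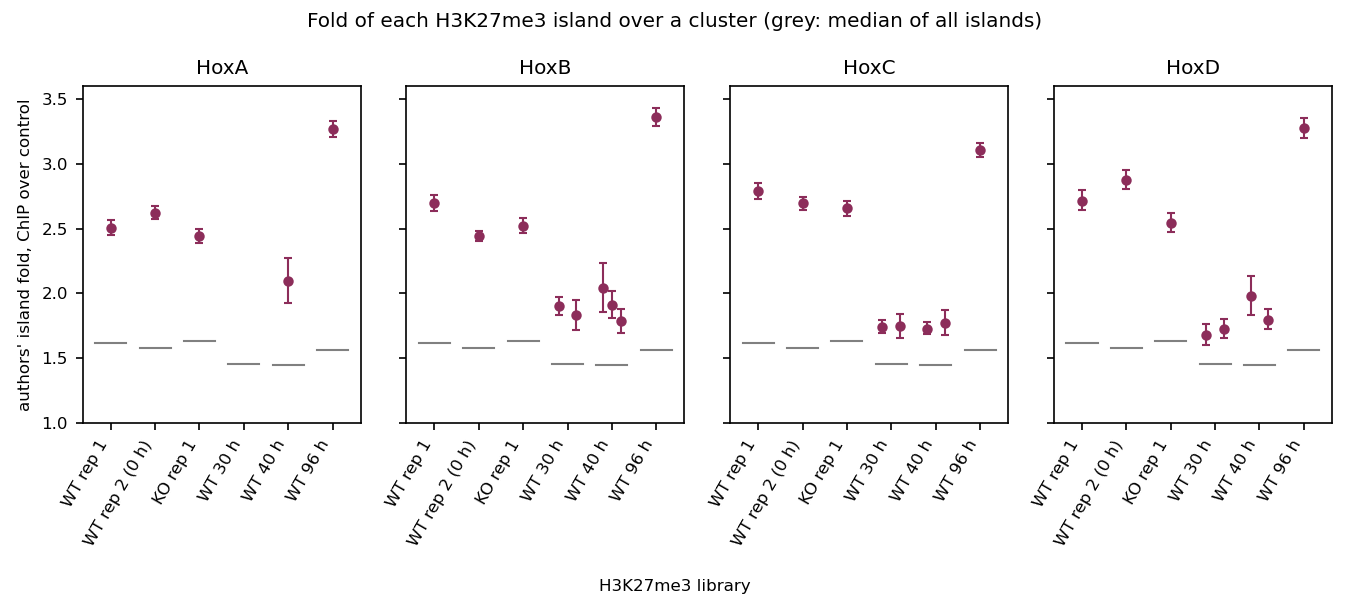
Fold over control of each H3K27me3 island over a Hox cluster, by library, with bars for the 95% counting interval and a grey mark for the median of all islands of that library. Islands at 30 and 40 h, which cover parts of the clusters, lie between 1.68 and 2.09. The whole-cluster islands at the other times lie between 2.44 and 3.36, and those of 0 h were taken against another control.

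H3K4me3 within the domains was sparse and uneven. The 4 spans held 46 peaks in WT replicate 1, 28 in WT replicate 2, 57 in KO replicate 1 and 28 in KO replicate 2, which covered 5.13%, 2.89%, 4.71% and 3.92% of the sequence. HoxA had 20, 13, 24 and 12 peaks and HoxB 14, 14, 20 and 13, while HoxC had 6, 1, 5 and 2 and HoxD 6, 0, 8 and 1. HoxA and HoxB thus held more peaks than HoxC and HoxD in each of the 4 libraries. The first libraries list 72177 (WT) and 73431 (KO) peaks in all against 25714 and 27006 in the second ones, and the larger Hox counts fell in the longer lists.

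Promoters with H3K4me3 numbered 14 of 38 in WT replicate 1, 8 in WT replicate 2, 18 in KO replicate 1 and 8 in KO replicate 2. Over all protein-coding genes the shares were 63.3%, 56.8%, 62.4% and 59.5%, so the Hox share was the smaller one in every library. Both WT libraries had it at 6 members and both KO libraries at 8, against 56.4% and 58.3% of all genes. No library had it at 18 members, against 35.2% of all genes. Starts of 16 members are not in the promoter table, and the end of those genes with more H3K4me3 was taken as the start, which can raise their counts.

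Late paralogs had the mark least often in each library. Of 7 early members (paralogs 1 to 3), 4, 2, 6 and 2 had H3K4me3 in WT replicates 1 and 2 and KO replicates 1 and 2. Of 15 middle members (4 to 8) the numbers were 6, 5, 9 and 5, and of 16 late members (9 to 13) they were 4, 1, 3 and 1. The members without it in any library were 1 of 7 early, 6 of 15 middle and 11 of 16 late ones. Starts set by the strand of each cluster added the early member Hoxb3 to these.

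Peaks in all 4 libraries were found at 6 promoters, those of Hoxa2, Hoxa4, Hoxa5, Hoxb2, Hoxb4 and Hoxb5, all in HoxA or HoxB and none above paralog 5. Values for each are the fold of the strongest peak in the window, given for WT replicates 1 and 2 and then KO replicates 1 and 2. Among the early ones, Hoxa2, which patterns the hindbrain and pharyngeal arches, had 8.17, 8.81, 6.31 and 13.8. Hoxb2, also a hindbrain gene, had 7.16, 11.5, 7.10 and 14.6. Both were highest in KO replicate 2.

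Of the middle ones, Hoxa5 had 8.75, 12.2, 8.42 and 19.2. Hoxa4, which acts in the neck and upper trunk skeleton, had 6.42, 10.3, 5.52 and 21.0. Hoxb4, known for expanding blood stem cells when overexpressed, had 7.0, 14.2, 6.05 and 21.8, and Hoxb5, a gene of the gut nervous system and shoulder position, had 7.88, 10.3, 6.05 and 13.6. In each of the 6 genes KO was below WT in the first libraries and above it in the second.

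The KO to WT ratio of these folds had a median of 0.863 (0.768 to 0.992) in the first libraries and 1.55 (1.27 to 2.05) in the second. Over 12272 promoters with the mark in all 4 libraries the median ratios were 0.893 and 1.40, with 15.4% and 96.9% of promoters above 1. The opposite directions were therefore also those of all genes, and no difference between genotypes at these 6 promoters held in both pairs. With 2 libraries against 2 an exact two-sided permutation test cannot go below p = 0.333, so none was made.

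The other 14 members with a peak had it in 1 to 3 libraries. Hoxb7, which acts in the rib cage, had a fold of 4.41 in WT replicate 2, 5.0 in KO replicate 1 and 6.16 in KO replicate 2. Hoxc9, which sets thoracic motor neuron identity, had 7.29 in WT replicate 1, 6.58 in KO replicate 1 and 4.88 in KO replicate 2. Hoxb7 and Hoxc9 were the members marked in both KO libraries and in 1 WT library. WT replicate 1 had a peak with a fold of 4.67 just outside the window of Hoxb7, 1.26 kb from the start. Hoxc9 was without a peak in WT replicate 2, the shortest of the 4 lists.

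Several members had the mark in both first libraries alone. Hoxc6, a trunk gene, had 12.0 in WT and 9.21 in KO, and the peaks of the second libraries lay just outside its window, 1.21 and 1.28 kb from the start. Hoxa3, needed for thymus and parathyroid, had 4.96 and 6.05. Hoxd1, Hoxd8, Hoxd9 and Hoxd13 had 7.29, 4.96, 5.83 and 4.96 in WT and 4.47, 3.95, 7.10 and 4.47 in KO. These HoxD genes range from an early paralog to Hoxd13, which shapes the digits, and the cluster had no peak at all in WT replicate 2. When the longer lists were shortened to the number of peaks in WT replicate 2, Hoxc6 was the member left in both.

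Single-library peaks were seen at Hoxa7, Hoxb3, Hoxc5 and Hoxd3 in KO replicate 1, with folds of 4.74, 3.68, 3.68 and 5.0, at Hoxd11 in WT replicate 1 with 4.96, and at Hoxb9 in WT replicate 2 with 9.79. The 18 members without a peak were Hoxa6, Hoxa9, Hoxa10, Hoxa11 and Hoxa13 in HoxA, Hoxb1, Hoxb6, Hoxb8 and Hoxb13 in HoxB, Hoxc4, Hoxc8, Hoxc10, Hoxc11, Hoxc12 and Hoxc13 in HoxC, and Hoxd4, Hoxd10 and Hoxd12 in HoxD. They include all 4 late members of HoxA, with Hoxa10 and Hoxa11, which pattern the lumbar skeleton, forearm and uterus, and the hindlimb motor neuron gene Hoxd10. Hoxb1, which gives the facial motor neurons their identity, was the 1 early member among them. The start of Hoxb3 is not in the promoter table, and by the strand of its cluster the peak lies at the other end of the gene. With starts set by cluster strand Hoxb3 had no peak, which gave 19 members without one.

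**Figure D3:**
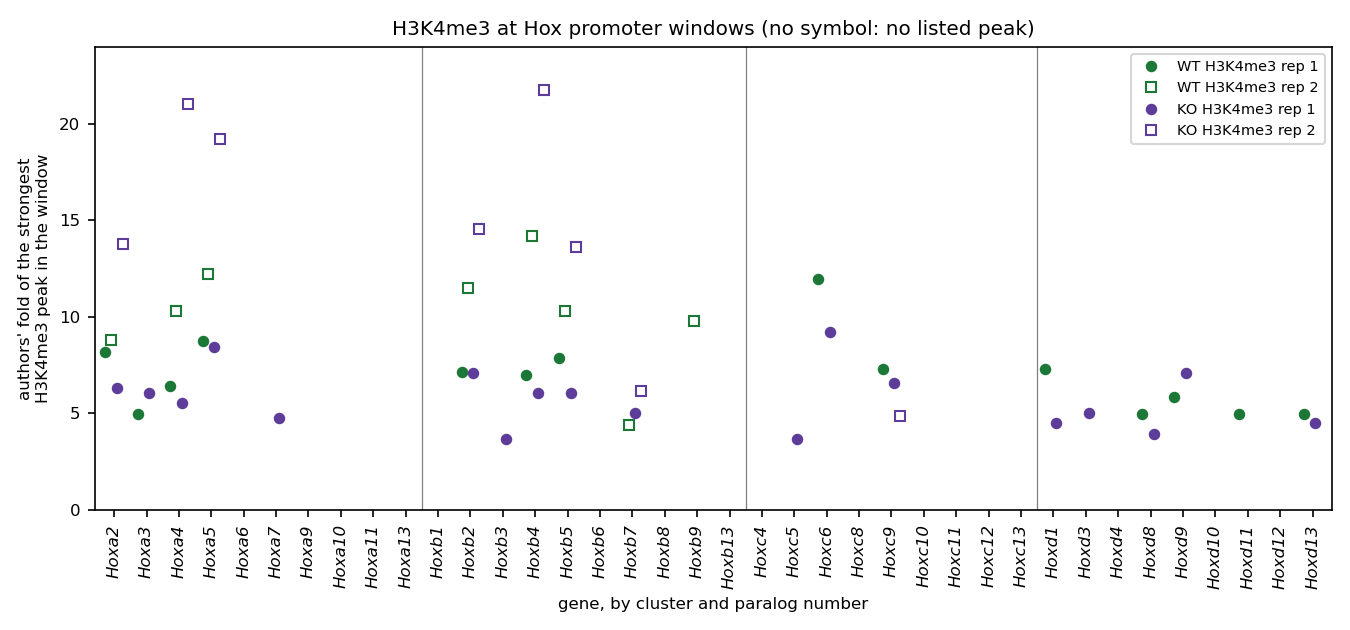
Fold of the strongest H3K4me3 peak in the promoter window of each Hox gene, by cluster and paralog number, with 1 point style per library and no point where the list has no peak. The points thin out towards high paralog numbers, and 6 promoters of HoxA and HoxB have all 4 points.

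Merging the peaks of the 4 lists gave 56 regions in the spans, 22 in HoxA, 17 in HoxB, 7 in HoxC and 10 in HoxD. A peak was present in all 4 lists at 19 of them, 9 in HoxA, 9 in HoxB, 1 in HoxC and 0 in HoxD, and in 1 list alone at 20. Of the 19, 11 lay in a promoter window and 7 inside a gene body away from it. The gene-body regions were in Hoxa3 (3 of them), Hoxb3 (3) and Hoxb6 (1). The last lay between genes, at chr6:52221410-52221766 between Hoxa7 and Hoxa9 and 3.01 kb from the Hoxa7 start, with folds of 16.04, 6.86, 13.2 and 11.2. The HoxC region was chr15:102998983-102999866 in Hoxc6, with folds of 12.0, 7.35, 9.21 and 10.5. In HoxD the most frequent region was chr2:74672607-74673182 between Hoxd13 and Hoxd12, with folds of 11.1, 11.1 and 4.71 in WT replicate 1 and KO replicates 1 and 2 and none in WT replicate 2.

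Both marks at a promoter, H3K27me3 with H3K4me3 in both libraries of the genotype, were found at 6 of 38 members in WT and 8 of 38 in KO. The WT members were the 6 with the mark in all 4 libraries, and KO added Hoxb7 and Hoxc9. In the WT library that lacked the call, Hoxb7 had a peak just outside its window. For Hoxc9 that library was the one with the shortest list. Over all genes the shares were 5.84% and 6.98%. All 38 members carried H3K27me3, however, so the Hox counts are those of H3K4me3 alone. Of all promoters with H3K27me3, 1279 of 4755 in WT replicate 1 and 1528 of 4905 in KO had both marks. These shares were larger than the 15.8% and 21.1% of the Hox members. The H3K4me3 side of these calls changed with the setting: with the 4 lists shortened to equal peak numbers 0 members had it in both WT and 0 in both KO libraries, and with at least 50% of the window covered 1 and 1 did. Since the marks were mapped in separate libraries of whole liver, they are not shown to lie on the same chromosomes or in the same cells. For each mark, fewer cells with it and less of it per cell cannot be told apart.

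The base composition of the 22 promoters in the table, over 300 bases around the start, had a median of 56.8% G and C and 13.5 CpG, close to the 56.3% and 13 of all 17492 promoters. Members with H3K4me3 in no library (11) had a median ratio of observed to expected CpG of 0.596, and those with it in all 4 (3) one of 0.593. Over all promoters the same classes had 0.181 and 0.774. The Hox classes had nearly equal medians, and single members went both ways, with a ratio of 0.918 at Hoxa13, which had no peak, and 0.589 at Hoxa2, which had peaks in all 4.

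No broad H3K9me3 peak was found at any member. In both genotypes 0 of 38 gene bodies overlapped one, which allows a share of up to 7.89%, against 21.1% (WT) and 21.4% (KO) of all gene bodies. A longer body has more room for an overlap, and the bodies compared were not matched for length. Whether Hox genes have less H3K9me3 than other genes of their length was therefore not tested. Promoter windows overlapped a broad peak in 0 of 38 members as well. The share of all genes was also low there, at 1.89% (WT) and 1.91% (KO). So was the share of all genes with at least 10% of the body covered, at 3.08% and 2.82%. At these shares a count of 0 in 38 is near the background. The spans of HoxA, HoxC and HoxD held no broad peak in WT or KO. In HoxB the 3 WT peaks were chr11:96210411-96212483, chr11:96218113-96220079 and chr11:96248826-96249258, with folds of 4.60, 4.51 and 3.36. The 2 KO peaks, chr11:96210754-96212728 and chr11:96218173-96219869, had folds of 4.96 and 4.2 and overlapped the first pair. All lay between Hoxb13, a gene of prostate and tail, and Hoxb9, in a stretch with no Hox gene. They covered 4473 bases in WT and 3672 in KO, and the region is within the H3K27me3 islands of all 3 baseline libraries.

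Outside the spans the nearest broad peak lay 12.6 kb below and 17.9 kb above HoxA in WT and 12.53 and 72.6 kb away in KO. For HoxD the distances were 28.6 and 4.65 kb in WT and 28.7 and 28.8 kb in KO. HoxC was the farthest from any, with 91.5 and 376.6 kb in WT and 162.4 and 373.9 kb in KO. In the narrow peak lists 1 KO peak of 112 bases with a fold of 2.98, at chr15:102966662-102966773, lay 0.022 kb from the body of Hoxc10 and inside its promoter window, and the WT list had none there. With 1 H3K9me3 library per genotype no difference was tested.

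**Figure D4:**
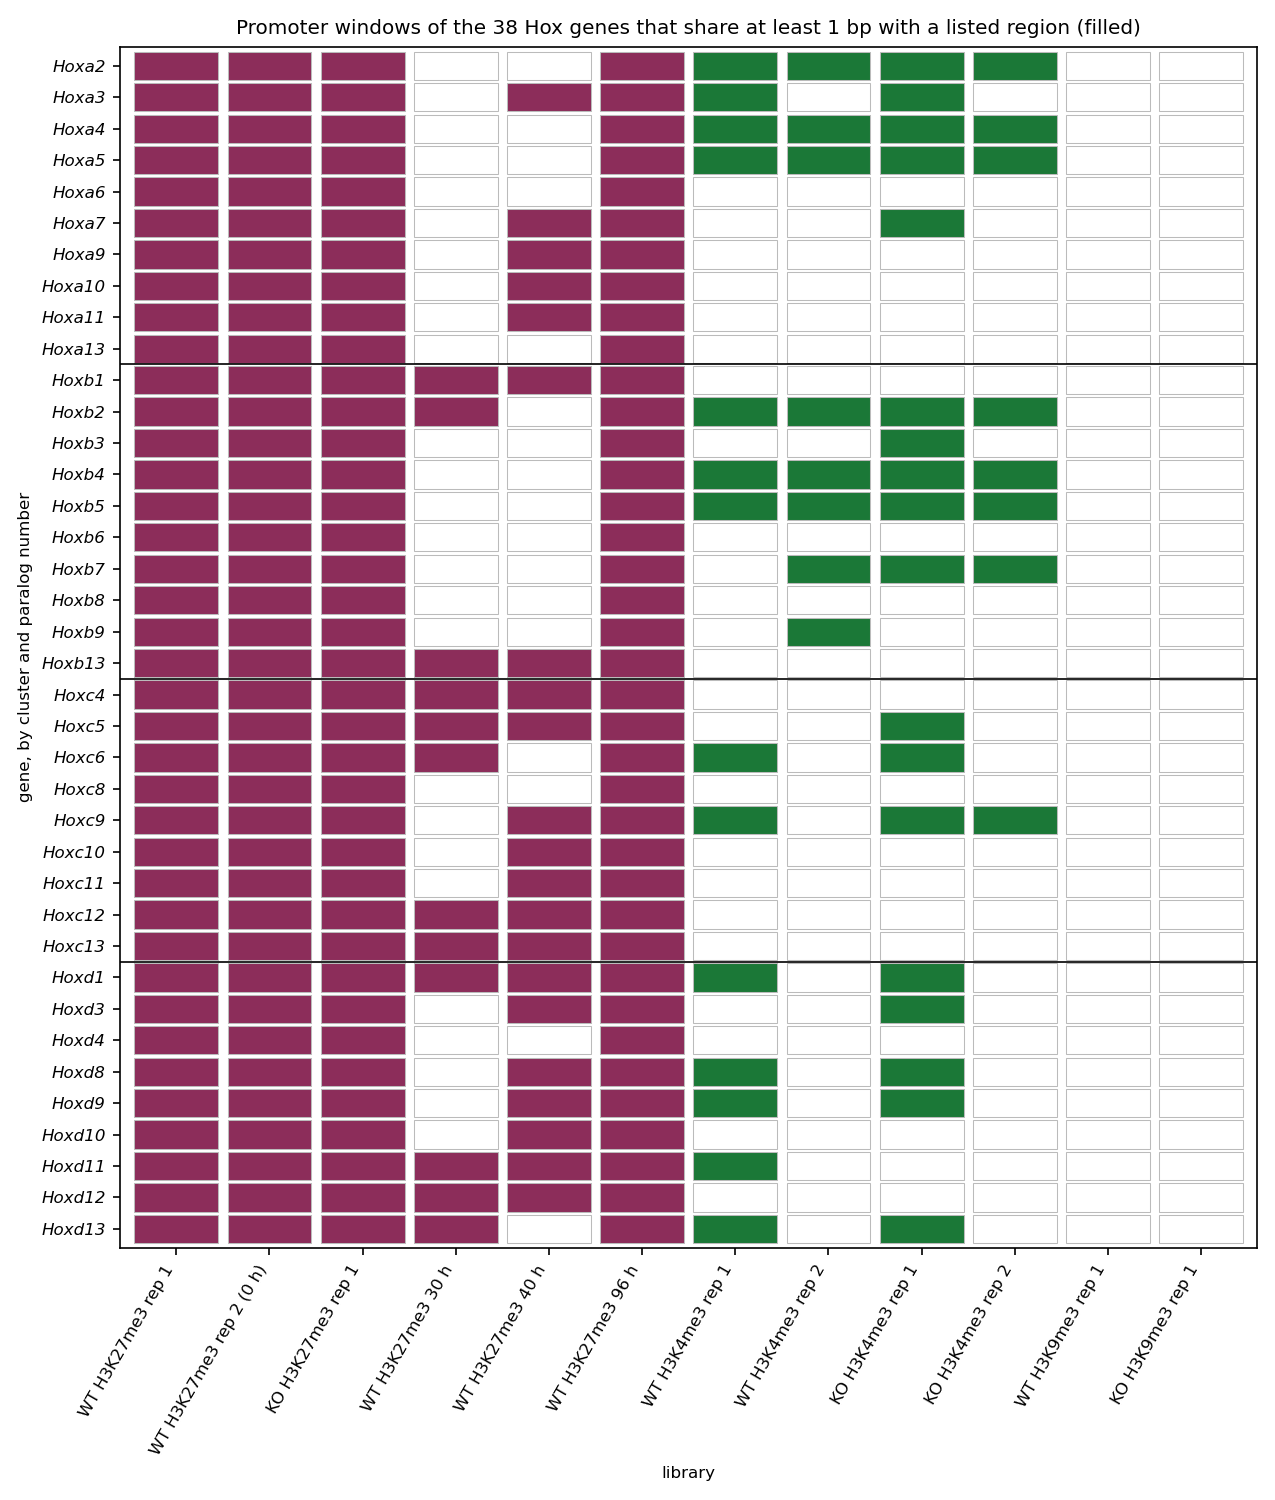
Promoter state of the 38 Hox genes, ordered by cluster and paralog number, in the 12 libraries, where a filled cell stands for an island or peak in the window. The H3K27me3 columns of WT baseline, 0 h, KO and 96 h are full, the 30 and 40 h columns have 12 and 21 filled cells, the H3K4me3 columns 14, 8, 18 and 8, and the H3K9me3 columns none.

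At 30 and 40 h of regeneration the H3K27me3 domains were broken up, and at 96 h each cluster was again 1 island over 100% of its span. Islands covered 201.6 kb (41.6%) of the 485 kb of the 4 spans at 30 h and 274.8 kb (56.7%) at 40 h. Of the 38 genes 10 lay wholly in islands, 3 in part and 25 not at all at 30 h, and 19, 2 and 17 at 40 h. Promoters marked at 30 h numbered 12 of 38, 40 h 21 and 96 h 38, against 17.0%, 16.5% and 24.1% of all promoters. Each time is 1 library, so these are differences between libraries with no replicate check.

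HoxA was the cluster without any island at 30 h. The free stretch was bounded closely, with islands 4.42 kb below and 7.12 kb above the span. At 40 h 1 island, chr6:52214001-52247000 with a fold of 2.09 (1.93 to 2.27), covered 33.5% of the span, from Hoxa7 to Hoxa11. The window of Hoxa3 counted as marked at 40 h through 3.35% of its length, at the edge of this island. Hoxa2, Hoxa4, Hoxa5, Hoxa6 and Hoxa13 were unmarked at both times.

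HoxB kept its outer parts. At 30 h chr11:96131001-96268000 (fold 1.90, 1.83 to 1.97) covered Hoxb13 and the stretch beside it that holds Mir196a-1 and no Hox gene, and chr11:96353001-96399000 (1.83, 1.72 to 1.947) covered Hoxb1 and part of Hoxb2. At 40 h there were islands at chr11:96177001-96199000 (2.04) over Hoxb13, at chr11:96205001-96268000 (1.91) over no member, and at chr11:96356001-96426000 (1.78) over Hoxb1. The islands covered 51.1% and 46.0% of the span. From Hoxb3 to Hoxb9 all 7 members were unmarked at both times, in a free stretch of 85 kb at 30 h and 88.0 kb at 40 h.

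HoxC had islands at both ends at 30 h, chr15:102754001-102946000 (1.74) over Hoxc13 and Hoxc12 and chr15:102997001-103064000 (1.75) over Hoxc6, Hoxc5 and Hoxc4. At 40 h they were chr15:102744001-102987000 (1.73), from Hoxc13 to Hoxc9, and chr15:103013001-103077000 (1.77), over Hoxc5 and Hoxc4. The share of the span was 55.9% and then 77.5%, and the free stretch 51.0 kb and then 26 kb. Hoxc8, a gene of thoracic vertebrae and motor neurons, was the 1 member unmarked at both times, and Hoxc12 and Hoxc13, the latter a hair and nail gene, were marked at both.

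HoxD had a similar extent to HoxC. At 30 h the islands were chr2:74598001-74682000 (1.68), over Hoxd13, Hoxd12 and part of Hoxd11, and chr2:74731001-74825000 (1.73), over Hoxd1. At 40 h they were chr2:74671001-74711000 (1.98), from Hoxd12 to Hoxd8, and chr2:74733001-74824000 (1.80), over Hoxd1. They covered 49.4% and then 74.4% of the span, leaving free stretches of 49.0 and 22.0 kb. Hoxd4, which shapes the neck vertebrae, was the 1 member unmarked at both times, and Hoxd3 counted as marked at 40 h through 0.400% of its window.

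Seen by paralog class, and with the calls as made, middle genes were without the mark most often. Unmarked at both 30 and 40 h were 2 of 7 early, 10 of 15 middle and 2 of 16 late members, 14 in all. At 30 h alone these were 2, 2 and 8, and at 40 h alone 1, 1 and 1 (Hoxb2, Hoxc6 and Hoxd13). The 12 unmarked at 30 h and marked at 40 h were Hoxa3, Hoxa7, Hoxa9, Hoxa10, Hoxa11, Hoxc9, Hoxc10, Hoxc11, Hoxd3, Hoxd8, Hoxd9 and Hoxd10. The 9 marked at all 4 times were Hoxb1, Hoxb13, Hoxc4, Hoxc5, Hoxc12, Hoxc13, Hoxd1, Hoxd11 and Hoxd12, all in the outer parts of HoxB, HoxC and HoxD.

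Of 4699 promoters marked at 0 and 96 h, 34.0% were unmarked at 30 h, 36.6% at 40 h and 21.9% at both. The Hox counts were 26 (68.4%, exact 95% interval 51.4 to 82.5), 17 (44.7%, 28.6 to 61.7) and 14 (36.8%, 21.8 to 54.0) of 38. These intervals treat the members as independent, although neighbours share islands. The share of all genes lay below the Hox interval at 30 h, inside it at 40 h and at its lower end for both times. Hoxb2 is among the genes whose start is not in the table, and with starts set by the strand of each cluster it was unmarked at 30 h too, which gave 27 and, for both times, 15.

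**Figure D5:**
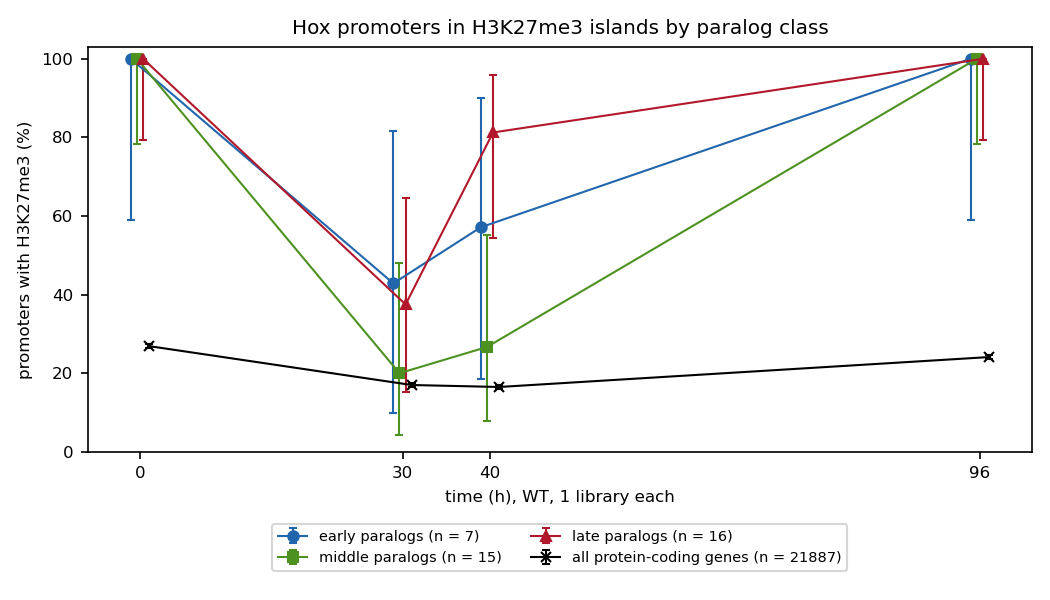
Share of promoters in an H3K27me3 island at 0, 30, 40 and 96 h for early, middle and late Hox paralogs and all protein-coding genes, with exact 95% binomial intervals that cover counting error only. The middle paralogs stay lowest of the classes at 30 and 40 h (20% and 26.7%), and the late ones go from 37.5% to 81.2%. At 40 h the early class counts Hoxa3 and Hoxd3 as marked, each at the edge of its window.

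The parts kept at 30 and 40 h overlapped. They shared 171.8 kb, which is 85.2% of the 30 h cover and 62.5% of the 40 h cover. By cluster the shared length was 0 kb in HoxA, 79.9 kb in HoxB, 48.7 kb in HoxC and 43.1 kb in HoxD, and the length covered at neither time was 65.5, 85, 10 and 20 kb. Sequence next to the spans was covered more than the span itself on 7 of 8 sides at 30 h. At 30 h the 50 kb below and above were covered to 91.2% and 80% at HoxA, 100% and 84.0% at HoxB, 100% and 54.3% at HoxC and 100% on both sides at HoxD. The promoter of Evx1 beside HoxA was unmarked at 30 h, with 69.3% of its body in an island, and that of Evx2 beside HoxD at 40 h.

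Over the 4 spans together, most of the H3K4me3 of baseline liver lay in stretches without islands, through HoxA and HoxB, which hold most of the peaks. Of H3K4me3 peak bases in the spans, 88.4% and 93.5% (WT replicates 1 and 2) and 85.3% and 92.2% (KO) lay outside the 30 h islands, where 58.4% of the sequence lay. Outside the 40 h islands, with 43.3% of the sequence, lay 81.7%, 98.9%, 76.7% and 95.2%. HoxA, with no island at 30 h, had all its peaks outside by construction. In HoxC the free stretch at 30 h, 44.1% of the span, held 57.0% and 0% of the peak bases in WT replicates 1 and 2 and 67.5% and 52.8% in KO. In HoxD the free stretch at 30 h, 50.6% of the span, held 54.9% in WT replicate 1 and 47.7% and 0% in KO. The 22.0 kb stretch of HoxD at 40 h, 22.7% of the span, held 0% in WT replicate 1 and 10.4% and 0% in KO. HoxD thus did not share the pattern at 40 h, and at 30 h its peak shares lay near or below the share of the span. Of the 19 regions with a peak in all 4 lists, 17 were outside the 30 h islands and 18 outside the 40 h islands, the exception at 40 h being the one between Hoxa7 and Hoxa9. No H3K4me3 was mapped in regenerating liver in these libraries, so this sets different livers side by side.

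By promoter, the 6 members with H3K4me3 in all 4 libraries were unmarked by H3K27me3 in 5 cases at 30 h and 6 at 40 h. Of 18 members without H3K4me3, 12 and 6 were unmarked. Over all promoters marked at 0 and 96 h, those with H3K4me3 in all 4 (1266) were unmarked in 50.6% and 51.9% and those with none (2327) in 24.2% and 28.8%.

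Signal in islands was lower at 30 and 40 h than at 96 h. Islands at 30 and 40 h held 15.2 M and 12.8 M ChIP reads over the genome against 21.4 M at 96 h, with median folds of 1.45 and 1.45 against 1.56. At 0 h they held 21.7 M and in WT replicate 1, where all 4 clusters were full, 16.4 M over 417.5 Mb, close to the 417.3 Mb covered at 30 h. Hox islands had 33.4 to 40.6 ChIP reads per kb at 30 h and 29.0 to 36.6 at 40 h, against 73.9 to 78.9 at 96 h, with the same control. These reads are not scaled for depth. The ratio of ChIP to control depth, taken from the counts and fold of the islands, was 0.369 at 30 h, 0.342 at 40 h and 0.438 at 96 h. Among all promoters marked at 0 and 96 h the unmarked share at 30 h was 26.7% below 45% G and C and 39.1% from 75% up, and the median content of G and C was 58.7% without the mark and 56.0% with it. In the Hox members the direction was opposite at 30 h, with 55% in the 16 without and 59.8% in the 6 with the mark, and turned at 40 h, with 59.8% in the 8 without and 55.3% in the 14 with it. The part of depth and of base composition in the Hox result was not tested.

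The fold over each cluster was higher at 96 h than in any Hox island at 30 or 40 h. The 96 h islands cover whole clusters and the earlier ones parts of them, so these folds are of unlike stretches. It was 3.27 (3.20 to 3.33) at HoxA, 3.36 (3.29 to 3.43) at HoxB, 3.11 (3.05 to 3.16) at HoxC and 3.27 (3.20 to 3.35) at HoxD. The 30, 40 and 96 h libraries share a control. Over islands of similar bounds paired between 30 and 96 h the median ratio was 1.09, and no Hox island was among these pairs. The 0 h folds, 2.62, 2.44, 2.70 and 2.88, were taken against another control and are not compared. The bounds at 96 h were chr6:52032001-52348000, chr11:96144001-96425000, chr15:102724001-103087000 and chr2:74601001-74825000.

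The microRNA genes followed the clusters they lie in. Mir196a-1 between Hoxb13 and Hoxb9 and Mir615 within Hoxc5 were wholly in an island in all 6 libraries. Mir196b and Mir196a-2 were outside islands at 30 h only, as were their neighbours Hoxa9, Hoxa10, Hoxc9 and Hoxc10. Mir10a and Mir10b were outside at both 30 and 40 h, like Hoxb4 and Hoxd4 beside them, so the seed-sharing members of the miR-10 pair had the same states in 6 of 6 libraries. H3K4me3 lay within 1 kb of Mir10a in 3 of 4 libraries, and none lay that close to Mir10b.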

How the data were processed

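All region lists were used as deposited, on GRCm38 coordinates, printed from 1. Per the submitters' processing notes, the tools named were SICER, MACS2, BWA, Picard, Trimmomatic and FastQC 0.11.5 and the builds mm10 and GRCm38.p4. H3K27me3 islands came with the authors' ChIP and control read counts, fold (a ratio) and p-value with its false discovery rate, per the file headers. H3K4me3 and H3K9me3 peaks came with the authors' score, fold and −log10 p-values and q-values, as deposited. Replicate peaks were in separate lists. The total reads of the libraries are unknown, and for H3K27me3 only the ratio of ChIP to control depth can be taken from the islands. The members and gene lists were chosen with earlier results of these data known.

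Islands with a false discovery rate of at most 0.01 and all deposited peaks on chromosomes 1 to 19, X and Y were overlapped, by at least 1 base, with promoter windows of 1 kb either side of the RefSeq start, present for 22 of 38 members and 17492 of 21887 protein-coding genes. For other genes the end with more H3K4me3 length over the 4 lists was used, or both where neither had more. All members could be named, in order along their cluster, and sequences were shown for members in the promoter table: in HoxA, HoxB and HoxD the one with the highest median H3K4me3 fold and 1 with none, and in HoxC 1 with none. Intervals are exact (95%) and cover counting error only, as does the floor of 3 counts for a share of 0. No test between groups was made. Equal control counts in islands of identical bounds showed which libraries share a control (WT replicate 1 with KO, 414 of 414 islands, and 30 with 40 h, 100 of 100, and with 96 h, 77 of 77). The alternatives changed the false discovery rate, fold minimum, window, overlap, lists and start rule. The overlap code was tested on simulated regions. Scripts ran on Python 3.11.15 with pandas 2.3.3, numpy 2.4.6, matplotlib 3.10.9 and, for intervals, scipy 1.17.1.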

Additional observations from a re-analysis of the deposited data

How the results depend on the processing

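Of 164 values recomputed under alternatives, 138 stayed the same or moved by no more than 1.5 times, and 26 moved further. A minimum island fold of 2 left 0 kb at 30 h and 37.7 kb at 40 h, 0 and 6 marked Hox promoters, and 32 unmarked at 40 h and 32 at both times. H3K9me3 bases rose to 9627 (WT) and 9855 (KO) with 50 kb added on either side, and were 2073 and 1975 at a q-value of at most 1e-05 and 2664 in the WT narrow list. With equal peak numbers H3K4me3 was at 1 member in each first library, and at 0 members in both WT and 0 in both KO libraries. With at least 50% of the window covered it was at 4, 2, 2 and 4 members in WT replicates 1 and 2 and KO replicates 1 and 2, and at 1 in both WT and 1 in both KO libraries. A window of 250 bases either side gave 4 in WT replicate 2, 5 in both KO libraries and 5 with both marks in KO. Leaving out 1 of the 2 libraries gave 8 to 14 members for WT and 8 to 18 for KO. Starts set by cluster strand, an alternative chosen after seeing the data, moved none of the counts by over 1.5 times.

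No paired analysis was possible because the results come from no test, so there was no fit to add a replicate block to, and KO to WT ratios within each numbered pair are given as values. Peak numbers limit H3K4me3 in the first libraries, whose lists are longer, and the overlap required limits it in all 4. Low enrichment at 30 and 40 h limits H3K27me3, since a region short of the threshold counts as free, and 1 library per time, per KO mark other than H3K4me3 and per H3K9me3 genotype leaves their differences without a replicate check.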

Other observations

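All 9 cofactor genes measured, of the Pbx, Meis and Pknox families whose proteins bind DNA together with Hox proteins, had H3K4me3 in all 4 libraries, against 56.1% of all genes. H3K27me3 was at 2 of 9 in WT replicate 1, WT replicate 2 and KO, 1 at 30 h, 2 at 40 h and 4 at 96 h, which at baseline is near the share of all promoters (21.7%, 26.9% and 22.4%). Meis3 was marked in all 6 libraries and Pknox2 in 5, all but 30 h. Meis1 and Meis2 had marked promoters at 96 h alone, with 1.90% and 12.7% of their bodies in islands at that time.

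The ParaHox genes, an evolutionary sister group of homeobox genes that acts in gut, pancreas and brain, were represented by 6 listed members. H3K27me3 was at 5 of them in both WT baseline libraries, in KO and at 96 h, the exception being Cdx4. At 30 h 3 were marked and at 40 h 4, against 17.0% and 16.5% of all promoters. Cdx2, a regulator of intestinal identity, was unmarked at both times with 0% of its body in islands, and Gsx1 at 30 h alone. None of the 6 had H3K4me3 in all 4 libraries, and with 6 genes no difference from other genes was tested.

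H3K4me3 peaks in the Hox spans were weak among the peaks of their library. Their median fold was 5.54 in WT replicate 1, 6.86 in WT replicate 2, 5.26 in KO replicate 1 and 8.16 in KO replicate 2, against list medians of 6.42, 18.6, 6.05 and 19.9. These medians stood at percentiles 43.2, 24.8, 41.4 and 30.3 of their lists.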
